A study of Mus musculus with 4 samples.

Results

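The genes described here are those of the calcium- and calmodulin-dependent kinases and of calcineurin, the enzymes that turn a synaptic calcium signal into phosphorylation and its removal. They were chosen by name, as 8 genes: Camk2a, Camk2b, Camk2d and Camk2g (subunits of CaM kinase II), Camk4 (CaM kinase IV), Ppp3ca and Ppp3cb (catalytic subunits of calcineurin) and Ppp3r1 (its regulatory subunit). A probe set counted when the array annotation gave it exactly 1 gene and that gene was one of the 8. This gave 8 probe sets of 7 genes, among 10833 probe sets of 8251 genes named in this way and 12422 probe sets that are not controls. Camk2a had 2 probe sets, the other 6 genes had 1 each, and Camk2g was not analysed here.

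RNA came from the dentate gyrus, the part of the hippocampus built mainly of granule cells, of young male C57BL/6J mice that an experimenter handled and that received no other treatment. The 4 samples were taken 1, 2, 4 and 6 h after other mice of the study had their last shock, and the shocked mice are outside the data used here. Each hour had 1 single-channel array of total RNA, so single values carry no replicate error. A mean ± SD below runs over the 4 arrays (n = 4), and whether an RNA came from 1 mouse or a pool is not stated in the labels. The number of arrays limits the precision, and in a bulk sample fewer cells of a type and less RNA per cell cannot be told apart.

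Calcium entering a dendritic spine through NMDA-type glutamate receptors binds calmodulin, and calcium-loaded calmodulin switches on these enzymes. CaM kinase II is very abundant at hippocampal synapses, and once its subunits have phosphorylated each other it can stay active after calcium falls, a step linked to long-term potentiation. Calcineurin is the opposing phosphatase. It is linked to long-term depression and dephosphorylates NFAT transcription factors, so that they enter the nucleus. CaM kinase IV acts largely in the nucleus, where it phosphorylates the transcription factor CREB.

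The labelled tissue was checked against marker genes. Of 11 dentate granule cell markers, 7 had probe sets named by 1 gene, and those 7 genes all had a probe set bright enough to be tested. Prox1, the transcription factor that marks granule cells, read 71.6, 278.2, 155.3 and 232.1 at 1, 2, 4 and 6 h. It lay farthest below the other arrays at 1 h in its list. Lct, another marker, was highest there, at 1343.5, 935.8, 977.1 and 923.0. Over the list 5 of 8 tested probe sets were lower at 1 h, with a median log2 difference of -0.14. The summed intensity of the 9 granule cell probe sets was 7148, 7525, 7451 and 8073 at 1, 2, 4 and 6 h. The list of CA pyramidal cells, the neighbouring neurons, had 6 of 12 genes measured and sums of 6154, 6779, 7361 and 6824. The interneuron list summed to 25525, 28168, 28079.9 and 25552, and the microglia and macrophage list to 9557, 10311, 10550.0 and 9847. The sums of the astrocyte list were 76691, 75194, 81861 and 77401. The oligodendrocyte list summed to 14814, 21939, 14944 and 15414, and the choroid plexus list, with 6 of 10 genes measured, to 2823, 4647, 5977 and 7616. Every sum but that of the astrocyte list was lowest at 1 h, but a sum can rest on single bright probe sets. Of the tested probe sets, 3 of 5 for CA pyramidal cells, 5 of 7 for interneurons and 6 of 11 for microglia were lower at 1 h. For astrocytes 7 of 13 were lower there, for oligodendrocytes 9 of 11 and for choroid plexus 4 of 6. Of all tested probe sets 45.4% were lower at 1 h. For Gapdh, a control transcript whose ends are measured by separate probe sets, the 3' signal was 4.88 times the 5' signal at 1 h, and 1.13, 1.33 and 1.24 times it at the later hours. For the other such control, beta-actin, the ratio was 2.51, 1.83, 2.20 and 1.97 at 1, 2, 4 and 6 h, and its 5' signal of 16040.2 at 1 h lay among the later values of 14516 to 18290.1. At least 2-fold from the mean of the other 3 arrays lay 7.08% of the 7453 tested probe sets at 1 h, against 3.39%, 2.82% and 2.76% at 2, 4 and 6 h.

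Among the kinases, only Camk2b was bright on every array. Camk2b, which encodes the beta subunit of CaM kinase II that also binds actin, had intensities of 12784, 12029.8, 13031 and 12870.2 in the 1, 2, 4 and 6 h arrays. Its mean was 12679 ± 445 (SD, n = 4), and the highest array was 1.08 times the lowest. Its SD on the log2 scale was 0.051, and 2.04% of the 7453 tested probe sets had a lower one. At 1 h, where the Gapdh ratio was 4.88, it was 1.01 times the mean of the other 3 arrays (the mean of log2 values here and below). That direction is not settled, since the log2 difference of 0.02 became -0.08 with quantile normalization.

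Both probe sets of Camk2a, the alpha subunit that excitatory forebrain neurons express, were dim, and they differed from each other. On 93660_at the intensity was 28.1, 196.6, 98.1 and 48.3 at 1, 2, 4 and 6 h, above the floor of 16.4 on every array. The floor is the 10th percentile of the intensities that are not controls, and values under it have no order. The 2 h array was the highest of this probe set and the 1 h array the lowest, 7.0-fold apart. On 93659_at the intensity was 6.8, 22.9, 19.6 and 12.8, with 2 of the 4 arrays under the floor, so no fold is given. Neither probe set reached the brightness needed for testing. Intensity does not compare transcript levels between probe sets, so these values do not place Camk2a against Camk2b.

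Camk2d, a subunit of CaM kinase II that is also prominent in heart, lay at the floor. Its intensity was 8.7, 17.5, 2.8 and 7.4 at 1, 2, 4 and 6 h, with 3 of the 4 arrays under 16.4. Camk4 read 82.8, 124.3, 102.7 and 89.7, above the floor on each array. Its mean log2 intensity of 6.62 lay just under the 6.66 needed for testing, and its highest array, at 2 h, was 1.5 times its lowest, at 1 h. The 2 h array was the highest for Camk4, Camk2d and both probe sets of Camk2a, all too dim to be tested. Camk2d was only just above the floor there, at 17.5 against 16.4, and the dimmer Camk2a probe set also had arrays under the floor. Camk2b, the tested kinase probe set, was lowest at 2 h. The share of all probe sets highest at 2 h was not computed, so no common peak is inferred from these values.

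**Figure D1:**
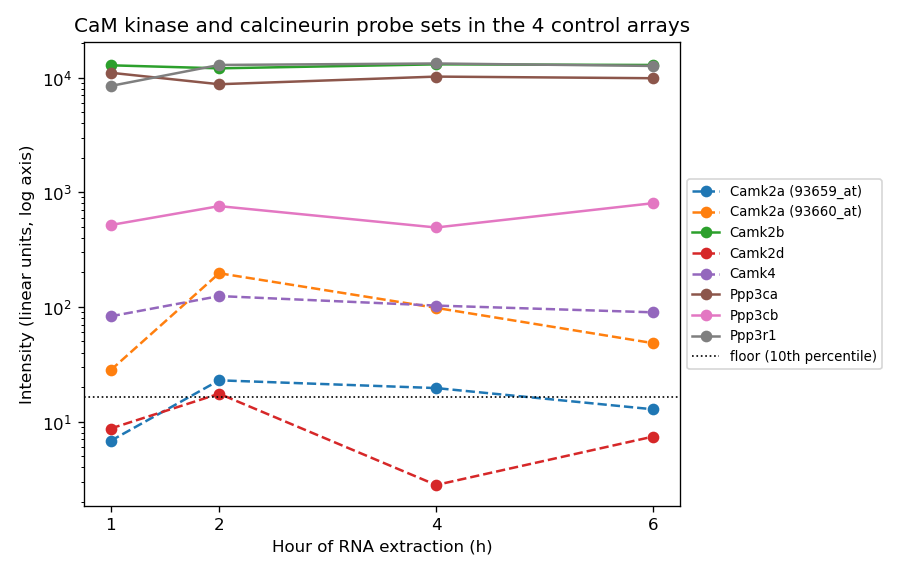
Intensity of the 8 probe sets (vertical axis, logarithmic) in the control arrays at 1, 2, 4 and 6 h (horizontal axis). Points are single arrays, lines join the arrays of a probe set, dashed lines are probe sets too dim to be tested, and the dotted line is the floor of 16.4. Camk2b stays between 12029.8 and 13031, while Camk2d has 1 array above the floor.

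The calcineurin genes were all bright enough to be tested. Ppp3ca, the alpha catalytic subunit and the main one of brain, had intensities of 11009, 8743, 10192 and 9864 in the 1, 2, 4 and 6 h arrays. Its mean was 9952 ± 939 (SD, n = 4). The 1 h array was the highest and the 2 h array the lowest, 1.26-fold apart. Its log2 SD of 0.14 was below the median of 0.24 over all tested probe sets.

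Ppp3cb, the beta catalytic subunit, read 517.6, 756.5, 492.6 and 802.3 at 1, 2, 4 and 6 h. Its mean was 642 ± 160 (SD, n = 4), and the highest array was 1.63 times the lowest. The arrays fell into a lower pair, 1 and 4 h, and a higher pair, 2 and 6 h, so the values followed no order in time. Its log2 SD was 0.36, and 72.8% of tested probe sets had a lower one.

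Ppp3r1, the calcium-binding regulatory subunit without which the catalytic subunits are not fully active, was low on the 1 h array. It read 8446 on that array, and 12875, 13263 and 12621 on the 2, 4 and 6 h arrays. The 3 later arrays lay close together and the 1 h array stood below all of them. At 1 h it was 0.654 times the mean of the other 3 arrays, a log2 difference of -0.61. Leaving out the 2, 4 or 6 h array gave -0.63 to -0.59. Of all tested probe sets, 11.1% were at least as far below the other arrays at 1 h, which is the array with the Gapdh ratio of 4.88. The marker sums were also lowest there for granule cells (7148 against 7451 to 8073), CA pyramidal cells (6154 against 6779 to 7361) and choroid plexus (2823 against 4647 to 7616). They were lowest there by less for microglia (9557 against 9847 to 10550). For oligodendrocytes (14814 against 14944 to 21939) and interneurons (25525 against 25552 to 28168) the gap to the next array was very small. The astrocyte sum was not lowest there. Such sums can rest on single probe sets. For CA pyramidal cells Nnat was low at 1 h (713.2 against 2061.6 to 2627.3), while Rgs14 was highest there (3951.4 against 2956.3 to 3781.6). For granule cells Neurod2 was low (1193.2 against 1672.9 to 1920.0), while Lct was highest (1343.5 against 923.0 to 977.1). Lower at 1 h were 3 of 5 tested CA pyramidal and 5 of 8 tested granule cell probe sets. The part of RNA quality or of other cells in the low Ppp3r1 value was not tested.

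The regulatory and catalytic probe sets changed unequally between arrays, a comparison that multiplying all values of an array by a constant does not alter. The ratio of Ppp3r1 to Ppp3ca at 1 h was 0.569 times its mean over the other 3 arrays, a log2 difference of -0.81. Among those 3 arrays the same log2 ratio spanned 0.20. At 1 h Ppp3r1 lay farthest below the other arrays among the 4 tested probe sets, and Ppp3ca farthest above. A wide gap between that pair is therefore built in, and pairs over all tested probe sets were not compared. The ratio of Ppp3r1 to Ppp3cb at 1 h was 0.845 times its mean over the other arrays, where it spanned 0.78 on the log2 scale, so this difference lay within the spread. These are ratios of change between arrays, not of subunit amounts. An effect on the 1 h array that differs between transcripts would remain in them, and the Gapdh ratio there was 4.88. Its part was not tested.

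**Figure D2:**
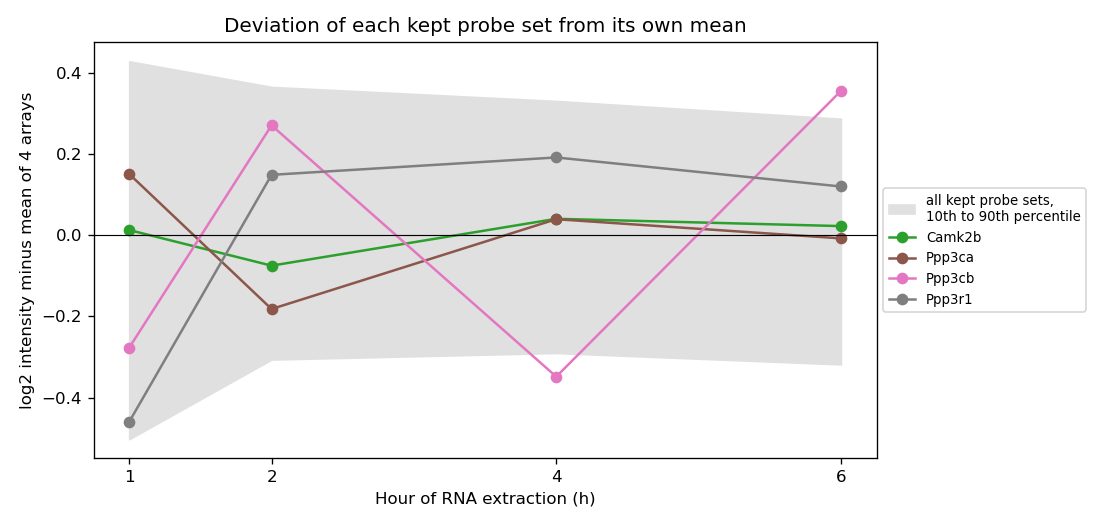
Log2 intensity of the 4 tested probe sets minus their own mean over the 4 arrays (vertical axis) by hour (horizontal axis), 1 point per array. The grey band runs between the 10th and 90th percentiles of all 7453 tested probe sets. Ppp3r1 is lowest at 1 h, Ppp3cb lies low at 1 and 4 h and high at 2 and 6 h, and Camk2b stays near 0.

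With 1 array an hour, the test that the design allows is a trend of log2 intensity on the hour, here limma with 2 residual degrees of freedom. At an adjusted p under 0.05 it called 0.0134% of the 7453 tested probe sets (1) and 0 of the 4 tested here. At an unadjusted p under 0.05, limma had 4.4% of all tested probe sets and 0 of these 4. Ppp3r1 had the largest slope of the 4, at 0.09 ± 0.05 log2 units per hour (SE; adjusted p = 0.874 in limma). Without the 1 h array that slope was -0.01. The slopes of Ppp3cb, Camk2b and Ppp3ca were 0.07 ± 0.07, 0.01 ± 0.03 and -0.01 ± 0.04, with adjusted p of 0.916, 0.969 and 0.984 in limma. The slope of Ppp3cb was -0.065 without the 6 h array, and that of Ppp3ca was 0.0133 with array medians made equal, 0.0055 with quantile normalization and 0.043 without the 1 h array, so neither direction is settled. The median slope of the 4 was 0.04, and that of all tested probe sets -0.01. A p that misses the threshold on 4 arrays does not show that these levels were constant.

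A difference between a pair of single arrays cannot be tested, so it was counted when it reached 2-fold. Against the 1 h array, 9.79%, 8.41% and 9.34% of the 7453 tested probe sets differed in this way at 2, 4 and 6 h, and 0 of the 4 probe sets of these genes did at any hour. Ppp3r1 was 1.52, 1.57 and 1.49 times its 1 h value at 2, 4 and 6 h. Ppp3cb was 1.46, 0.952 and 1.55 times its 1 h value at the same hours. With no filter on dim probe sets, 20.1% and 19.5% of 12422 probe sets differed from 1 h at 2 and 4 h, and so did 1 of the 8 here at each hour, the dim Camk2a probe set 93660_at.

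The probe sets whose profile over the 4 arrays was most like that of Ppp3r1 and Ppp3cb were found by the root mean square difference of mean-centred log2 values. For Ppp3r1 they were those of Klf4, a transcription factor (79.2, 123.5, 128.2 and 122.0 at 1, 2, 4 and 6 h), Rab10, a trafficking GTPase, and Tuba1a, an alpha tubulin whose probe set may share sequence with related genes. Their differences were 0.018, 0.022 and 0.023. In all, 222 of 6730 candidate probe sets (3.3%) lay within 0.1 of Ppp3r1. For Ppp3cb they were Skap2, an adaptor protein (330.9, 463.1, 310.1 and 486.7), Nup85, a nuclear pore protein, and Brox, with differences of 0.030, 0.042 and 0.047, and 14 of 6730 candidates lay within 0.1.

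Other genes of calcium and calmodulin signalling were taken from 5 lists of 83 genes, of which 53 had a probe set named by 1 gene and 44 were tested, with 52 probe sets. In limma 0 of the 52 passed the adjusted threshold, with a lowest adjusted p of 0.874, and 5 (9.62%) had an unadjusted p under 0.05, against 4.4% of all tested probe sets. Slopes were positive for 23 and negative for 29, with a median of -0.01, equal at this rounding to that of all tested probe sets. At least 2-fold from the other arrays at 1 h were 4 of the 52, or 7.69%, against 7.08% of all tested probe sets.

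The list of calmodulin and calcium-binding proteins had 13 tested probe sets, 6 of calmodulin or proteins taken as calmodulin-binding and 7 of calcium-binding proteins (S100b, Ncs1, Vsnl1, Calb1, Calb2, Pvalb and Hpca), with 8 positive slopes and a median of 0.02. The largest differences at 1 h were those of Calm2, a calmodulin gene, and Calb2 (calretinin, a calcium buffer). Calm2 read 574.9, 289.6, 348.3 and 232.2 at 1, 2, 4 and 6 h, and Calb2 662.5, 1265, 1229 and 1427. Nrgn, the neuronal calmodulin-binding protein neurogranin, read 5237, 4930.3, 5575 and 5346 and so varied little. It was chosen after its values were seen.

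The list of other kinases taken as calmodulin-regulated, Dapk3 among them, had 6 tested probe sets, with 2 positive slopes and a median of -0.02. The largest differences at 1 h were those of the catalytic subunit genes of phosphorylase kinase, a kinase that carries calmodulin as a subunit. Phkg2 read 291.5, 409.5, 420.4 and 455.7, and Phkg1 114.2, 192.5, 122.2 and 155.5. Both were lowest on the 1 h array and were named for their distance from the other arrays there. Over the list 2 of 6 were lower at 1 h, and the median log2 difference was 0.08.

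The list of other calcineurin subunits, regulators and NFAT factors had 9 tested probe sets, with 4 positive slopes and a median of -0.01. It holds 3 of protein phosphatase 1, which calcineurin controls through an inhibitor: its catalytic subunits Ppp1cb and Ppp1cc, and the inhibitor, Ppp1r1a. Nfatc3, an NFAT factor, read 35.6, 170.6, 204.5 and 150.9 on the tested probe set and 15.4, 23.6, 22.4 and 36.7 on another near the floor. Ppp3cc, the gamma catalytic subunit, which is best known from testis, read 126.4, 169.6, 242.5 and 229.5. Both genes were lowest at 1 h and were named for their distance from the other arrays there, while over the list 4 of 9 were lower at 1 h and the median log2 difference was 0.14. Rcan1, an inhibitor of calcineurin that NFAT induces, was highest there, at 1061, 873.8, 724.0 and 804.1, and was chosen after its values were seen.

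The protein kinase C list had 13 tested probe sets, with 4 positive slopes and a median of -0.03. It holds 2 that are no protein kinase C, those of Prkd1, a protein kinase D, and Prkcsh, a subunit of a glucosidase. The largest differences at 1 h were those of Prkcb and Prkca, conventional forms that calcium activates. Prkcb read 11847, 8523, 6863 and 7576 at 1, 2, 4 and 6 h on one probe set and 1419.7, 1327, 1077 and 1334 on another. Prkca read 484.3, 354.3, 411.4 and 300.0. These 3 probe sets were highest on the 1 h array, by a log2 difference of 0.64, 0.20 and 0.46 (Prkca), while 7 of the 13 were lower there.

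The list of other calmodulin-activated enzymes and of ryanodine receptors, the calcium release channels that calmodulin binds, had 11 tested probe sets, 4 of them of the channels, with 5 positive slopes and a median of -0.0034. Ryr1, one of the channels, read 49.9, 156.5, 197.2 and 91.3. Pde1a, a calmodulin-activated phosphodiesterase, read 56.3, 100.7, 149.1 and 152.1 on the dimmer of its probe sets. Both were lowest at 1 h and were named for their distance from the other arrays there. Over the list 7 of 11 were lower at 1 h, and the median log2 difference was -0.08.

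**Figure D3:**
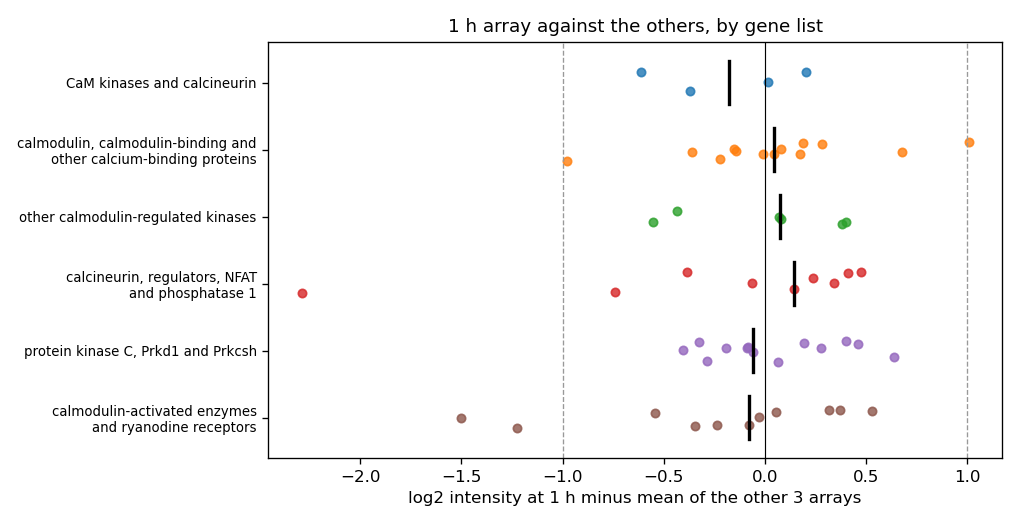
Log2 intensity at 1 h minus the mean of the other 3 arrays (horizontal axis) for each tested probe set (points), by gene list (rows), with the list's median as a black bar and 2-fold as dashed lines. The 4 CaM kinase and calcineurin probe sets all lie inside the 2-fold lines, from -0.61 (Ppp3r1) to 0.20 (Ppp3ca).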

How the data were processed

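Total RNA of 4 control samples was measured on single-channel arrays. The table the authors deposited holds linear intensity values by probe set and array, with no read depth. The software and scaling behind them are not given in the sources used here. Every array has a trimmed mean of 500.3 (2% cut at each end), so samples that differed in total RNA would not show it. Names came from the array annotation, and old symbols were replaced, by Entrez identifier, with those of GRCm38.p6, used for names only.

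Values were used as deposited. Those under the 10th percentile of the probe sets that are not controls (16.4) were raised to that floor before log2 transformation. The 7453 probe sets tested had a mean log2 value at or above the 40th percentile (6.66). Slopes on the hour were fitted with limma 3.58.1 in R 4.3.3 (lmFit, eBayes with a trend on intensity), two-sided, with Benjamini-Hochberg adjustment over all of them. The fit was tested on simulated data whose noise was independent between probe sets and arrays. That test does not cover a departure of the 1 h array shared by many probe sets.

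The members and lists were chosen with earlier results of these data known. Named genes are all member probe sets, the 2 of each list farthest from the other arrays at 1 h, and the 3 nearest profiles of the 2 tested members of largest SD. Nrgn, Rcan1, Prox1, Pde1b, Gap43, Mylk, the brighter Pde1a probe set and the second Prkcb and Nfatc3 probe sets were chosen after their values were seen. So were the markers Lct, Neurod2, Nnat, Rgs14, Ttr and Igfbp2. Other scalings, filters, floors, time scales and variance priors were tried, and each array was left out.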

Additional observations from a re-analysis of the deposited data

Results flagged for a closer look

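Ppp3r1, the regulatory subunit of calcineurin, had a 1 h array far from the others. The gap between its lowest and next array was 0.89 of its whole log2 range, above Dixon's critical value for 4 samples. It was the 1 flagged of 14 probe sets looked at in this way. These were the 4 tested members and the probe sets named from the lists, which were picked by their distance at 1 h. For probe sets not picked by their values, chance flags about 1 in 20. Over all 7453 tested probe sets 8.63% met the criterion, and 3.68% did so with the 1 h array lowest. Because of that picking, neither these shares nor 1 in 20 can be set against the count, and no conclusion is drawn from it. The 4 arrays are of different hours, and the 1 h array is the one with the Gapdh ratio of 4.88. The beta-actin ratio there was 2.51, against 1.83 to 2.20 on the other arrays. The part of RNA quality in the Ppp3r1 value was not tested.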

How the results depend on the processing

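Each result was recomputed with array medians made equal, with quantile normalization, with no filter and a filter at the 60th percentile, with a floor at the 5th percentile and without each array in turn, and the slopes also on log2 of the hour and with an untrended variance prior. With no filter, the count of these genes' 8 probe sets at least 2-fold apart from 1 h was 1 at 2 h and 1 at 4 h. For the 1 h array against the others it was 1 as well, because the dim Camk2a probe set then entered. Of all 12422 probe sets, 20.1%, 19.5% and 16.4% differed in these 3 comparisons. Under all of these, 0 of these genes' slopes and 0 of the 5 lists' slopes passed in limma. The slope of Ppp3ca was 0.0133 with median scaling and 0.0055 with quantile normalization, and ran from -0.032 without the 2 h array to 0.043 without the 1 h array. That of Ppp3cb ran from -0.065 to 0.115 without 1 array and turned without the 6 h array. That of Ppp3r1 ran from -0.0072 to 0.189 and turned without the 1 h array. The median slope of the 4 tested probe sets ran from 8.6e-05 to 0.06 without 1 array. The 1 h difference of Camk2b was -0.08 with quantile normalization. The cause of these changes other than the filter's was not tested. No paired analysis was possible because each hour has 1 array. Dim probe sets near the floor limit what Camk2a and Camk2d can show.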

Other observations

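Within the lists, 5 of 52 tested probe sets (9.62%, against 4.4% of all tested probe sets) had an unadjusted p under 0.05 for the slope in limma, each with an adjusted p of 0.874, and they were named after their values were seen. Pde1b, a calmodulin-activated phosphodiesterase also high in striatum, read 1594, 1879, 2429 and 2733 at 1, 2, 4 and 6 h, a slope of 0.16 ± 0.04 log2 units per hour (SE). The brighter probe set of Pde1a, a related enzyme, read 457.6, 494.9, 582.8 and 681.4, a slope of 0.12 ± 0.05. Gap43, a growth-associated protein that binds calmodulin, read 1367, 1483, 1782 and 2043, a slope of 0.12 ± 0.04. The values of these 3 ran upward at every step. So did those of Ttr, a choroid plexus marker and the 1 probe set called in all, at 224.6, 443.6, 1258 and 3009 (slope 0.74, limma adjusted p = 0.0232). The sum of the choroid plexus markers, which holds Ttr, also rose (2823, 4647, 5977 and 7616). Ttr alone gave 1258 of the 5977 at 4 h and 3009 of the 7616 at 6 h. The rest of that sum did not rise between those hours. Of the 6 tested probe sets of that list 4 had a positive slope, and Igfbp2 fell from 829.9 at 4 h to 663.1 at 6 h. The part of choroid plexus in these values was not tested. Mylk, myosin light chain kinase, ran downward, at 842.5, 743.7, 620.3 and 564.4, and the other probe set was that of Calb2.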
